A study of Homo sapiens with 14 samples.

Results

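The 10 genes WNT1, WNT3, WNT3A, WNT4, WNT5A, WNT5B, WNT7A, WNT7B, WNT8B and WNT10B encode secreted WNT proteins. They were chosen by symbol, with earlier results of these data known, and are 10 of the 19 WNT ligand genes and of the 57445 gene entries in the hPSC and day 11 tables. The cells were the established human pluripotent stem cell line H9 (WA-09), sequenced undifferentiated (hPSC) or on the way to midbrain dopamine neurons. All differentiating cultures received Sonic hedgehog (SHH C25II), the BMP and TGF-beta pathway inhibitors LDN and SB431542, and 0.7 µM of the GSK3 inhibitor CHIR99021 (CHIR) up to day 3. CHIR was then held at 0.7 µM or boosted to 3, 5 or 7.5 µM from day 4, SHH, LDN and SB431542 were withdrawn on day 7, and the day 10 medium of all arms held 3 µM CHIR with BDNF, GDNF, TGFβ3, ascorbic acid and dibutyryl cAMP. Cells were taken at day 11, with 2 libraries for each of the 4 concentrations and 2 for hPSC. Sources differ on when the boost ended, at day 10 or at day 9. The labels do not say whether the 2 replicates of a group were separate cultures, so p-values measure the spread between these libraries.

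WNT proteins are lipid-modified signals. In the canonical branch they bind Frizzled receptors with LRP5 or LRP6, GSK3 is held off β-catenin, and β-catenin with TCF/LEF factors switches on target genes. CHIR blocks GSK3 inside the cell and so acts downstream of every ligand. In the embryo, WNT1 marks the midbrain side of the midbrain-hindbrain boundary and the dorsal midline, WNT3A the dorsal midline and the caudal end of the embryo, and WNT5A the ventral midbrain.

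Gene counts came to between 20.52 and 44.76 M per library at day 11 and in hPSC. Levels are counts per M gene counts (CPM; M stands for 1000000), and log2 fold changes come from edgeR's quasi-likelihood test with Benjamini-Hochberg adjustment over all genes tested, threshold 0.05. Same-numbered day 11 libraries deviated together from their group means in all 6 pairs of groups (r = 0.64 to 0.86 across genes, which are not independent replicates). Results with the replicate number as a block are therefore given beside those without it wherever the call differs. The r was 0.64 to 0.68 in pairs with 7.5 µM and 0.79 to 0.86 between the lower doses. Non-unique alignments made up 24.96% to 28.34% in replicate 1 at 0.7, 3 and 5 µM. They made up 17.4% in replicate 1 at 7.5 µM and 15.13% to 17.84% in replicate 2. The replicate difference in this measure was thus smaller at 7.5 µM, while the block assumes an equal replicate effect at every dose. Its part in the blocked calls at 7.5 µM was not tested. The cultures are bulk samples, in which fewer cells of a type and less RNA per cell cannot be told apart.

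The tables of the 7.5 µM protocol at day 16 and day 30 (4 libraries, 5.41 to 6.34 M gene counts) were checked and not used for WNT levels. Among 616 pairs of genes whose exons overlap on opposite strands, chosen for a clear difference in the 7.5 µM day 11 libraries, the gene that was lower there exceeded its partner in 55.0% to 67.9% of pairs in the later libraries, and in 0 of the 616 pairs in each hPSC and day 11 library. TRABD2A stood at 7010 to 15200 CPM in the later libraries and at 1.1 to 25.8 CPM at day 11. SOX2, a neural progenitor factor, was listed at 0 in all 4 later libraries. GAPDH was at 71.0 to 290 CPM there, against 2987 to 9966 CPM at day 11. Values listed under a WNT gene in those tables therefore cannot be read as that gene's level, and no change from day 11 to day 16 or from day 16 to day 30 is reported.

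**Figure D1:**
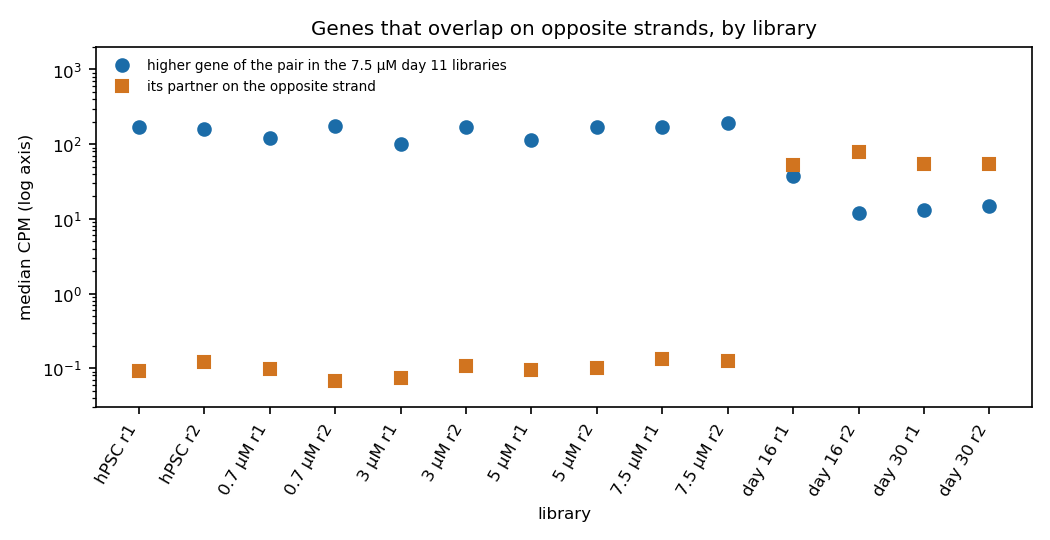
Median CPM (log axis) of 616 pairs of genes that overlap on opposite strands, for each of the 14 libraries (r1 and r2 are replicates). Circles show the gene that was higher in the 7.5 µM day 11 libraries, on which the pairs were chosen, and squares its partner; the squares lie near 0.1 CPM up to day 11 and above the circles in the 4 later libraries.

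Promoter sequence was at hand for 8 of the 10 genes in RefSeq (GRCh38.p14). The 250 bases upstream of the start are shown for WNT4, whose CPM was higher at each higher dose in both replicate series, and for WNT3A and WNT8B, which stood high at 7.5 µM. Capitals mark CpG dinucleotides. WNT4 (chr1:22143098-22143347, minus strand) and WNT3A (chr1:228006748-228006997, plus strand) have 40 and 38 CpGs, and WNT8B (chr10:100462759-100463008, plus strand) has 3, against a median of 11 over 35116 promoter windows of that length. None of these stretches overlaps an exon of GENCODE 29.
WNT4: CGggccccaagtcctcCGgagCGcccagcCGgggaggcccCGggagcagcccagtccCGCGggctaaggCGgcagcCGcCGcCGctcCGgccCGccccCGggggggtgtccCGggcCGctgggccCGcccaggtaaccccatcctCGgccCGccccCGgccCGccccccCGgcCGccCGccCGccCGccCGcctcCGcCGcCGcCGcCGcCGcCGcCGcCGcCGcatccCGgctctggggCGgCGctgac
WNT3A: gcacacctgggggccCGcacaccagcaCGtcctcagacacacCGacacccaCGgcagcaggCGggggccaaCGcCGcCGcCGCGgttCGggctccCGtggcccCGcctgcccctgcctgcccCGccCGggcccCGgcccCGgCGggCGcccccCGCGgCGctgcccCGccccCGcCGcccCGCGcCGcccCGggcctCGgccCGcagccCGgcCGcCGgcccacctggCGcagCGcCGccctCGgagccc
WNT8B: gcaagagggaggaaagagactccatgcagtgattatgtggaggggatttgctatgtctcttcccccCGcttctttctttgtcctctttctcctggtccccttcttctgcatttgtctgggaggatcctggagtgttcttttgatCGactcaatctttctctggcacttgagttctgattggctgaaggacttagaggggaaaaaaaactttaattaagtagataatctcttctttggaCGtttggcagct

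The TCF/LEF core CTTTGA, searched on both strands, was in 0 of 10 member windows (8 genes, some with more than 1 start) and in 11.2% of all windows. The related core CTTTGT, also searched on both strands, was in 1 member window, that of WNT8B, and in 13.7% of all windows. A match describes these letters only. WNT10B and WNT1 are close neighbours in RefSeq, with 1 small RNA gene between them.

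WNT4, a ligand best known from kidney and gonad development, showed the most regular dose series. It stood at 5.85 and 3.71 CPM at 0.7 µM, 14.6 and 8.35 at 3 µM, 34.3 and 16.9 at 5 µM, and 46.8 and 33.1 at 7.5 µM (replicates 1 and 2). Each step was upward in both replicate series, and replicate 1 was the higher library at all 4 doses. In CPM the libraries of 0.7, 3 and 5 µM did not overlap between neighbouring doses, and those of 5 and 7.5 µM did. CPM leave out the library scaling factors (TMM) of the edgeR fits, which were 0.7814 for 3 µM replicate 1 and 1.085 for 5 µM replicate 2. Divided by these factors, the levels of 3 and 5 µM overlap too. At 7.5 against 0.7 µM the log2 fold change was 2.90 ± 0.68 (SE) without the block, adjusted p = 0.29, and 2.91 ± 0.31 with it, adjusted p = 0.000789. In edgeR WNT4 thus rose with the block and was not called without it, and DESeq2 without the block called it (adjusted p = 0.00308). It kept the blocked call when any 1 of the 4 libraries was left out (adjusted p = 0.00069 to 0.0138). WNT4 was also the single member called at 5 against 0.7 µM with the block (log2 fold change 2.45 ± 0.30, adjusted p = 0.00514; 1.0 without it, and 0.0367 with DESeq2 without it). That call was lost without 0.7 µM replicate 1 (adjusted p = 0.0868) or 5 µM replicate 1 (0.0592). With the block the change from 0.7 to 3 µM was 1.44 ± 0.30 and was not called (adjusted p = 0.202). That from 5 to 7.5 µM was 0.46 ± 0.28 with the block, adjusted p = 0.312, so neither of these steps was shown. An exon of a gene on the opposite strand, AL445253.1, overlaps WNT4 by 55 bases in GENCODE 29, and reads there cannot be assigned with certainty.

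WNT7B, a ligand of forebrain, lung and vessel development, was graded too, at lower levels. It was at 0.244 and 0.268 CPM at 0.7 µM, 0.976 and 0.916 at 3 µM, 1.30 and 1.14 at 5 µM, and 2.73 and 2.84 at 7.5 µM. In CPM no 2 neighbouring day 11 groups overlapped, and the replicates lay close together at every dose. The TMM factors of replicates 1 and 2 were 0.7814 and 1.017 at 3 µM and 0.8555 and 1.085 at 5 µM. Divided by these factors, the levels of 3 and 5 µM overlap, and the replicates of each lie further apart. These levels rest on 17, 52, 66 and 183 counts per group. The log2 fold change at 7.5 against 0.7 µM was 3.25 ± 0.55 without the block (adjusted p = 0.209) and 3.22 ± 0.48 with it (adjusted p = 0.0038, at most 0.0345 with any 1 library left out). At 5 and 3 against 0.7 µM WNT7B missed the threshold with the block (2.27 ± 0.49, adjusted p = 0.0614, and 2.02 ± 0.50, adjusted p = 0.288).

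Over the 8 day 11 libraries, the slope per doubling of CHIR concentration passed the test with the block for WNT4 (0.86 ± 0.10, adjusted p = 0.0069), WNT7B (0.90 ± 0.14, adjusted p = 0.0187) and WNT3A (adjusted p = 0.00986). Without the block, in edgeR, WNT3A alone passed (adjusted p = 0.0429). That is 3 of 9 members tested with the block, where 1.19% of all 18709 genes were called, and 1 of 9 without it, where 0.134% were. WNT3A passed the filter on low counts only through its 7.5 µM libraries, so its slope calls lean on that group. Leaving out any 1 of the 8 libraries ended the call of WNT3A without the block (adjusted p = 0.0688 to 0.214). With the block WNT4 lost its slope call without 0.7 µM replicate 1 (adjusted p = 0.0853). WNT7B lost it when either 0.7 µM library was left out (0.147 for replicate 1 and 0.0861 for replicate 2) and when replicate 2 of 7.5 µM was (0.0673). WNT3A lost it on leaving out replicate 1 of 0.7 µM (0.0853) or replicate 2 of 7.5 µM (0.0648).

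WNT3A, the canonical ligand of the dorsal midline and caudal embryo, was near 0 until the highest dose. It had 0 counts in both 0.7 µM libraries, where 3 counts would be 0.146 and 0.067 CPM, 0 and 2 counts at 3 µM, 4 and 4 at 5 µM, and 37 and 29 at 7.5 µM (1.10 and 0.904 CPM). The 7.5 µM libraries were above all others. Against the floor of 3 counts over the 0.7 µM group, WNT3A was at least 21.8-fold higher at 7.5 µM (counting error only). The call at 7.5 against 0.7 µM was made with the block (adjusted p = 0.00925; 0.256 without it) and was lost without 0.7 µM replicate 2 (0.0724). Against 5 µM the ratio of counts was 6.90 (95% interval 3.31 to 16.7, counting error only), and this step missed the threshold with the block (adjusted p = 0.0818).

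WNT8B, a ligand of the embryonic forebrain and hippocampal primordium, behaved as a step. It had 0 and 7 counts at 0.7 µM, 0 and 2 at 3 µM, 0 and 2 at 5 µM, and 65 and 36 at 7.5 µM (1.93 and 1.122 CPM). No 7.5 µM library overlapped one of a lower dose. The log2 fold change at 7.5 against 0.7 µM was 3.86 ± 0.95 with the block (adjusted p = 0.0295) and 3.86 ± 1.33 without it (adjusted p = 0.471). The blocked call was lost on leaving out either 0.7 µM library (adjusted p = 0.15 for replicate 1 and 0.0641 for replicate 2) or replicate 1 of 7.5 µM (0.117). With 1 library left out the blocked log2 fold change ran from 2.58 (without replicate 1 of 7.5 µM) to 8.37 (without replicate 2 of 0.7 µM, which leaves 0 counts at that dose, so that the fitted value gives no size). At 7.5 against 5 µM the counts were 101 against 2, a ratio of 42.3 (95% interval 11.4 to 354, counting error only). This was called with the block (adjusted p = 0.0325; 0.757 without) and lost on leaving out either 5 µM library (0.198 for replicate 1 and 0.182 for replicate 2) or replicate 1 of 7.5 µM (0.0795). hPSC had 0.774 and 1.64 CPM of WNT8B, a range that overlaps that of 7.5 µM.

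Sums over lists of cell type markers differed between the same groups. A sum does not show which genes or cells carry it. The caudal epiblast and mesoderm list (9 genes) summed to 0.76 to 1.07 CPM at 0.7 µM and 24.8 to 35.4 CPM at 7.5 µM. The list named roof plate and dorsal held 8 genes (LMX1A, MSX1, MSX2, GDF7, ZIC1, PAX3, PAX7 and BMP6). It summed to 58.7 to 104 and 286 to 287 CPM, and no single cell type is read from it. Boundary markers (10 genes) summed to 31.4 to 35.9 and 185 to 349 CPM. The cortical hem and forebrain list (9 genes) stayed low in sum, at 4.63 to 5.92 and 5.17 to 5.86 CPM. Its genes did not stay level at 7.5 against 0.7 µM. Of the 5 tested with the block, 1 had a positive log2 fold change, and the median was -2.91. In that fit 1 of them was called lower, where 4.87% of all genes were. The part of these cell types in the levels of WNT3A, WNT8B, WNT4 and WNT7B was not tested.

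WNT10B, a canonical ligand encoded beside WNT1, went the opposite way. It stood at 2.44 and 3.49 CPM at 0.7 µM, 1.35 and 2.29 at 3 µM, 0.674 and 1.72 at 5 µM, and 0.238 and 0.811 at 7.5 µM. Each step was downward in both replicate series, and replicate 2 was higher at all 4 doses. The 0.7 and 7.5 µM libraries did not overlap. The log2 fold change at 7.5 against 0.7 µM was -2.77 ± 0.48 with the block (adjusted p = 0.0071) and -2.68 ± 0.73 without it (adjusted p = 0.332). WNT10B thus fell with the block, and kept the call with any 1 library left out (adjusted p = 0.00331 to 0.0436, log2 fold change -3.49 to -2.39).

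WNT7A, a ligand of the neural tube and cerebellum, was flat over the lower doses and lower at the highest. It was at 1.41 and 0.961 CPM at 0.7 µM, 1.35 and 0.986 at 3 µM, 1.396 and 1.256 at 5 µM, and 0.356 and 0.717 at 7.5 µM. Both 7.5 µM libraries were below the 6 others. The log2 fold change against 0.7 µM was -1.26 ± 0.54 with the block, adjusted p = 0.154, and -1.32 ± 0.63 without it, adjusted p = 0.639. The blocked result depended on 1 library, being -2.21 and called lower without replicate 2 of 7.5 µM (adjusted p = 0.0194) and -0.64 without replicate 1 (0.456).

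WNT1, the classical boundary ligand, was hardly detected. It had 4 and 13 counts at 0.7 µM (0.195 and 0.290 CPM), 0 and 3 at 3 µM, 0 and 3 at 5 µM, 1 and 1 at 7.5 µM, and 0 and 0 in hPSC. The 2 libraries of 0.7 µM were above all others. WNT1 did not pass the filter on low counts and was not tested. The ratio of counts, 0.7 over 7.5 µM, was 8.56 (95% interval 2.03 to 76.4, counting error only).

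WNT5A, the non-canonical ligand of the ventral midbrain, was lowest at the middle doses of day 11. It was at 47.3 and 24.4 CPM at 0.7 µM, 9.49 and 12.2 at 3 µM, 8.81 and 18.1 at 5 µM, and 43.9 and 42.3 at 7.5 µM. The 3 and 5 µM libraries lay below those of 0.7 and 7.5 µM without overlap. From 5 to 7.5 µM WNT5A rose with the block (log2 fold change 1.46 ± 0.36, adjusted p = 0.0448) and was not called without it (1.48 ± 0.47, adjusted p = 0.757). That call was lost on leaving out either 5 µM library (adjusted p = 0.387 for replicate 1 and 0.149 for replicate 2) or replicate 1 of 7.5 µM (0.069), with log2 fold changes of 0.99 to 2.01. The drop from 0.7 to 3 µM was -1.53 ± 0.37 with the block and did not pass (adjusted p = 0.279), nor did that to 5 µM (-1.35 ± 0.37, adjusted p = 0.144). The 7.5 and 0.7 µM groups differed by 0.11 ± 0.35 with the block (adjusted p = 0.869). Floor plate markers (6 genes), of the ventral midline, were also lowest in sum at the middle doses. The sums were 921 to 1360 CPM at 0.7 µM and 479 to 510 CPM at 7.5 µM. At 3 µM they were 379 to 388 CPM and at 5 µM 296 to 306 CPM. Unlike WNT5A, 4 of these 6 genes were called lower at 7.5 against 0.7 µM with the block, where 4.87% of all genes were. In that fit 0 of the 6 had a positive log2 fold change (median -1.46). Their part in the WNT5A levels was not tested.

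WNT5B, the close relative of WNT5A, split by replicate. From the lowest to the highest dose, replicate 1 held 8.77, 2.74, 3.42 and 8.14 CPM and replicate 2 held 1.25, 0.564, 0.847 and 3.34 CPM. The ratio of replicate 1 to replicate 2 was 7.01, 4.86, 4.04 and 2.44 in that order. In both series the middle doses were lowest, as for WNT5A, and the groups overlapped. At 7.5 against 5 µM the blocked log2 fold change was 1.41 ± 0.44 (adjusted p = 0.0748; 1.98 and called without replicate 1 of 7.5 µM, adjusted p = 0.0292). With all libraries no comparison of WNT5B passed. The 2 replicate series also differed in reads counted to no gene (6.88% to 10.05% in replicate 1 and 13.04% to 16.42% in replicate 2). This difference was smallest at 7.5 µM (10.05% in replicate 1 and 13.04% in replicate 2). The part of this in the WNT5B split was not tested.

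WNT3, a canonical ligand needed for gastrulation, was expressed at all doses. It was at 5.31 and 6.99 CPM at 0.7 µM, 3.19 and 10.5 at 3 µM, 5.39 and 10.5 at 5 µM, and 13.4 and 10.4 at 7.5 µM. The replicates of 3 µM and of 5 µM lay further apart than the means of those 2 groups, and they overlapped the range of 0.7 µM. The log2 fold change at 7.5 against 0.7 µM was 0.85 ± 0.40 with the block (adjusted p = 0.195) and 0.79 ± 0.56 without it (adjusted p = 0.808). The blocked result depended on 1 library, being 1.33 and called higher without replicate 2 of 7.5 µM (adjusted p = 0.024) and 0.12 without replicate 1 (0.866).

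**Figure D2:**
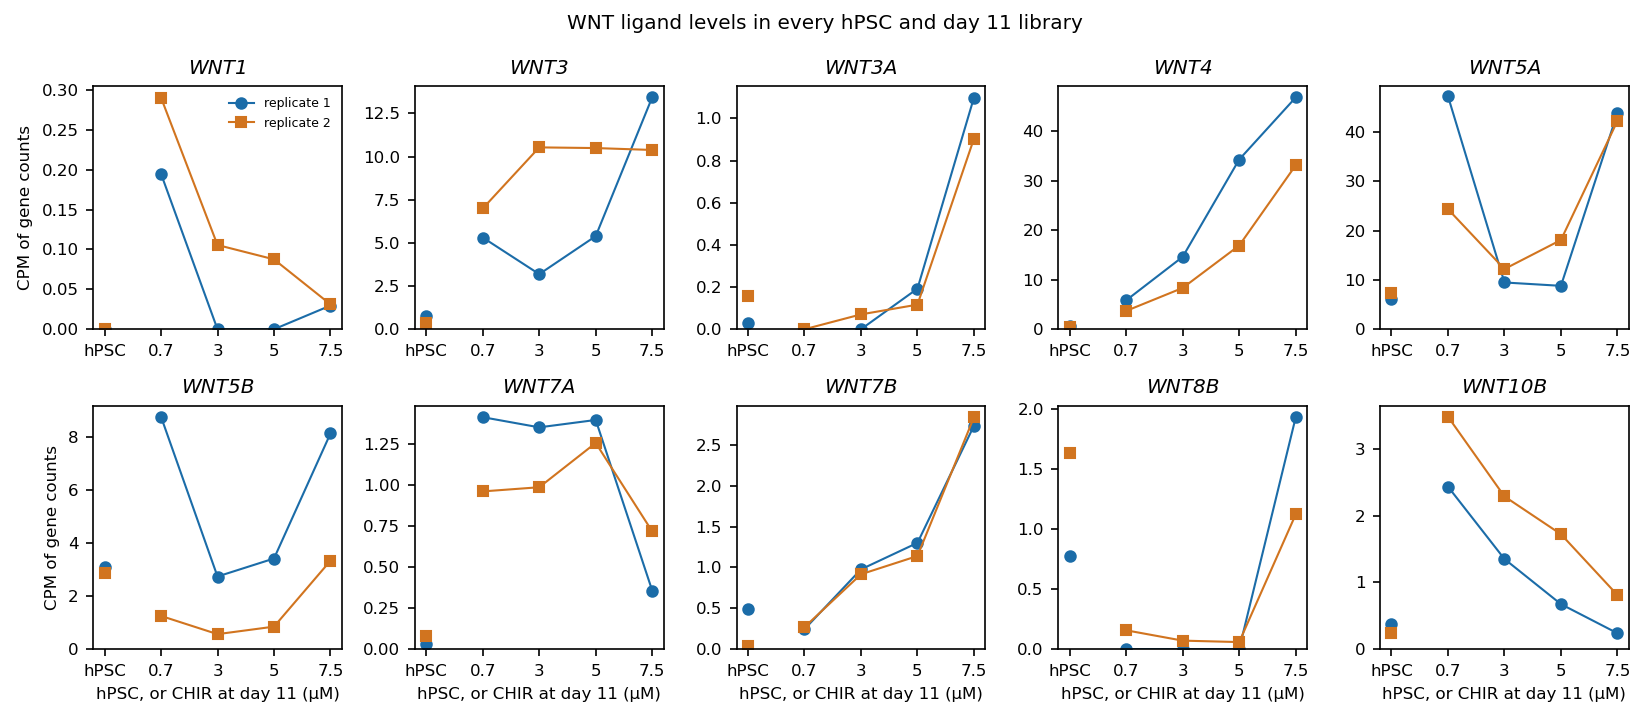
CPM of the 10 WNT genes in each hPSC library and in each day 11 library by CHIR concentration in µM, with lines joining the libraries of 1 replicate number. WNT4 and WNT7B climbed in both series, WNT10B went down in both, and among the day 11 libraries WNT3A and WNT8B were highest at 7.5 µM and WNT5A was lower at 3 and 5 µM than at 0.7 and 7.5 µM.

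Counted together at 7.5 against 0.7 µM, 5 of 9 members tested were called with the block, 4 higher (WNT3A, WNT4, WNT7B, WNT8B) and 1 lower (WNT10B), where 10.5% of 18709 genes were called (5.64% higher and 4.87% lower). WNT3A and WNT8B passed the filter on low counts only through the 7.5 µM libraries, where they are high. Their calls at that dose follow in part from the filter and add no separate support. Without the block 0 of 9 were called, and 0 of 18709 genes (0%), with 1641 genes at an unadjusted p under 0.05. DESeq2 without the block called 4 of the members (WNT3A, WNT4, WNT7B, WNT10B) and 657 genes. The median log2 fold change of the 9 members was 0.85 with the block, against 0.07 over all genes tested. At 5 against 0.7 µM 1 member was called with the block (1.13% of genes), at 3 against 0.7 µM 0 (0.0214%), and at 7.5 against 5 µM 2 (6.53%), with 0 in each without the block in edgeR. These comparisons share the same 8 libraries.

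**Figure D3:**
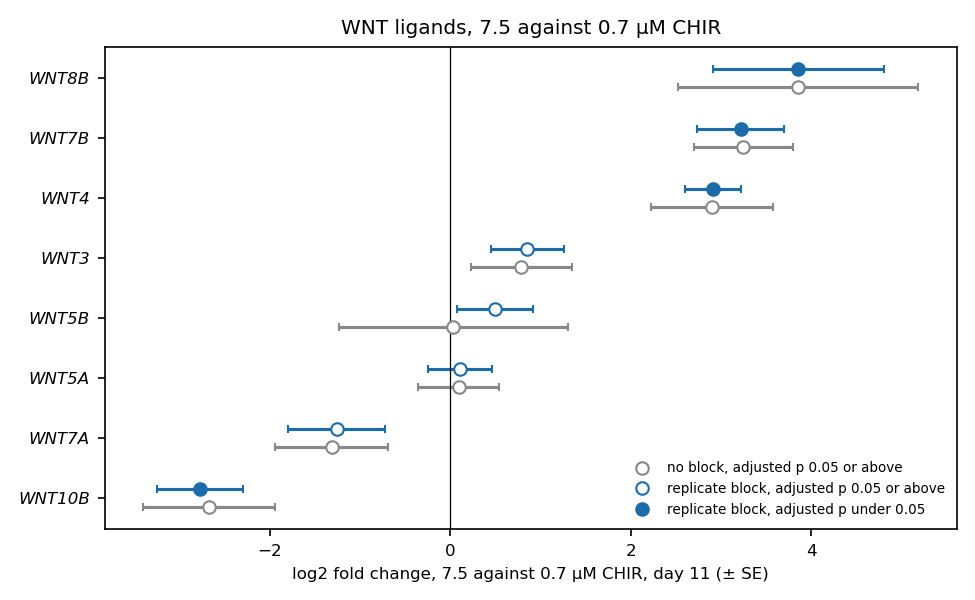
Log2 fold change ± SE at day 11, 7.5 against 0.7 µM CHIR, for 8 WNT genes, without (grey) and with (blue) the replicate number as a block; filled points have an adjusted p under 0.05. WNT3A, with 0 counts at 0.7 µM, and WNT1, not tested, are left out. The point estimates of the 2 fits lie within 0.5 of each other for each gene, and the blocked SE is smaller for each.

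Set against undifferentiated cells, several ligands were higher in differentiating cultures at both ends of the dose range. At 0.7 µM 5 of 9 members were called without a block, where 11.4% of 19672 genes were (5.31% higher). They were WNT3 (log2 fold change 3.59 ± 0.63, adjusted p = 0.0133), WNT4 (3.28 ± 0.67, 0.0213), WNT5A (2.57 ± 0.44, 0.0119), WNT10B (3.42 ± 0.71, 0.0229) and WNT7A (adjusted p = 0.0113), all higher than in hPSC. WNT7A had 3 counts in hPSC and 72 at 0.7 µM, a ratio of 21.1 (95% interval 6.93 to 105, counting error only). WNT8B was at -3.49 ± 1.18 and was not called (adjusted p = 0.1; 0.0205 with DESeq2). Same-numbered hPSC and day 11 libraries did not deviate together (r = -0.11 to -0.18), so the fits against hPSC are given without a block. The day 11 libraries in them were still paired among themselves. With the replicate block WNT8B was called lower at 0.7 µM (adjusted p = 0.0311).

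At 7.5 µM 4 of 9 members were called against hPSC without a block and higher (10.1% of genes called, 4.35% higher), namely WNT3 (4.37 ± 0.65, adjusted p = 0.00771), WNT4 (6.18 ± 0.75, 0.00417), WNT5A (2.66 ± 0.44, 0.0103) and WNT7A (0.0373). WNT7B (3.32 ± 0.86) lay at an adjusted p of 0.0501 (0.000701 with DESeq2) and was called without hPSC replicate 1 (0.039). WNT3A (3.39 ± 1.04) lay at 0.0967. With the replicate block WNT7B (adjusted p = 0.0112) and WNT3A (0.041) were called higher. WNT3A passed the filter on low counts only through its 7.5 µM libraries here too. Its call against hPSC follows in part from the filter and adds no separate support. WNT10B was within 0.74 ± 0.69 of hPSC (adjusted p = 0.631). Leaving out hPSC replicate 1 or 2 ended every call at 0.7 µM (adjusted p = 0.0742 to 0.187) and left 2 and 0 calls at 7.5 µM. Leaving out 7.5 µM replicate 1 or 2 left 2 calls each. At 0.7 µM, WNT4 was also lost without replicate 1 of that dose (0.0704) and WNT10B without replicate 2 (0.0603).

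Levels can be compared between genes only per length of exon. Per kb of exon (GENCODE 29, which need not be the authors' annotation), WNT5A led at 0.7 µM (4.85 ± 2.19 CPM per kb, SD, n = 2), followed by WNT3 (1.42 ± 0.27), WNT5B (1.17 ± 1.24), WNT10B (1.13 ± 0.29) and WNT4 (1.05 ± 0.33). The differences among these 4 were within their spread. At 7.5 µM WNT4 led (8.80 ± 2.11), then WNT5A (5.82 ± 0.16), WNT3 (2.75 ± 0.50) and WNT5B (1.33 ± 0.79), and WNT1 was last (0.0226 ± 0.000707). In hPSC WNT5A (0.92 ± 0.11), WNT5B (0.693 ± 0.037) and WNT8B (0.571 ± 0.288) were highest, and WNT1 was at 0.

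**Figure D4:**
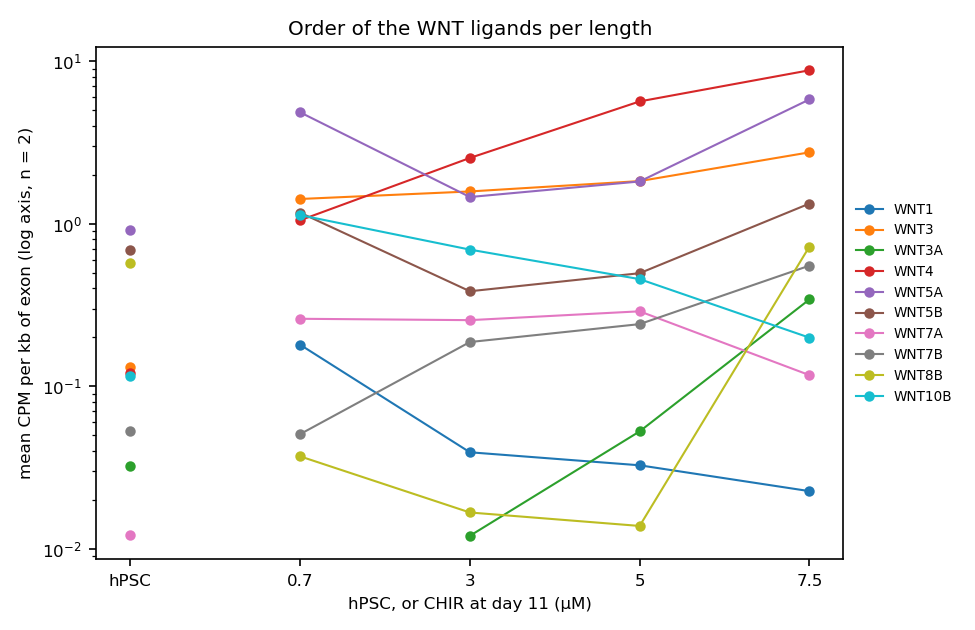
Mean CPM per kb of exon (log axis, n = 2) of the 10 WNT genes in hPSC and at the 4 day 11 concentrations; means of 0 are not drawn. WNT5A has the highest mean at 0.7 µM and WNT4 at 3, 5 and 7.5 µM. At 3 µM WNT4 was at 3.23 and 1.84 and WNT3 at 0.736 and 2.43 CPM per kb (replicates 1 and 2), so WNT3 was higher in replicate 2.

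Genes of the pathway around the ligands are given by 5 lists chosen with earlier results in view. Of 8 β-catenin feedback targets, 7 rose at 7.5 against 0.7 µM with the block and 0 without it (median log2 fold change with the block 2.38, all genes 0.07), where 5.64% of all genes were called higher with the block. LGR5, the R-spondin receptor, went from 1 to 222 counts per group, and passed the filter on low counts only through its 7.5 µM libraries. SP5, a repressor that feeds back on WNT targets, was at 2.26 ± 2.09 CPM (SD, n = 2) at 0.7 µM and 134 ± 21.6 at 7.5 µM, AXIN2, a scaffold of the β-catenin destruction complex, at 47.9 ± 32.7 and 289.5 ± 38.4, and LEF1 at 34.7 ± 16.4 and 201 ± 27.1.

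Of 5 genes of WNT processing, 2 rose with the block, against 5.64% of all genes, and the list's median log2 fold change was -0.48. NOTUM, a carboxylesterase that removes the lipid from WNTs, went from 0.438 ± 0.208 to 24.8 ± 4.62 CPM (adjusted p = 0.000299), and TRABD2A, a protease that cleaves WNTs, from 1.28 ± 0.30 to 24.2 ± 2.27 (0.000599). WLS, the carrier of WNTs to the surface, was at 835 ± 69.0 and 616 ± 202 CPM and was not called (adjusted p = 0.132), nor was TRABD2B (-1.39 ± 0.74, adjusted p = 0.24).

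Among 9 secreted antagonists tested, 3 rose and 1 fell with the block (5.64% and 4.87% of all genes), with a median log2 fold change of 1.44. DKK1, an LRP6 blocker, was at 11.5 ± 13.8 CPM at 0.7 µM and 263.5 ± 143.8 at 7.5 µM (log2 fold change 4.79 ± 0.56, adjusted p = 0.00123), DKK2 at 0.248 ± 0.282 and 3.76 ± 0.95 (0.00675). SFRP1, a secreted decoy, fell (-1.80 ± 0.24, adjusted p = 0.00237) and DKK4 was not called (2.28 ± 0.91, 0.131).

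Of 18 receptors and co-receptors, 4 rose and 3 fell with the block (5.64% and 4.87% of all genes), with a median log2 fold change of 0.35. FZD10 rose (3.40 ± 0.39, adjusted p = 0.00105), FZD2 fell (-1.59 ± 0.39, 0.03), ADGRA2 fell (-1.81 ± 0.44, 0.0291) and FZD5 was not called (-1.53 ± 0.47, 0.0658). Of the other 9 WNT ligand genes, 4 were tested. WNT2B rose with the block (3.93 ± 0.49, adjusted p = 0.00153; 0.319 without), from 0.295 ± 0.279 to 5.08 ± 3.36 CPM, and WNT11, WNT9A and WNT9B were not called (2.50 ± 0.998, -0.82 ± 0.52 and 0.26 ± 0.94). In edgeR no list member just named was called without the block.

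The genes whose log2(CPM + 1) was most like that of each tested member over the 8 day 11 libraries, of 15004 searched, were listed by Pearson r as a description with no test. ZIC4 was most like WNT3A (r = 0.994), followed by EGFL6 and HSPA12A. ZNF503 (0.987), ALPL and AF003625.3 were most like WNT4, and FAM46C (0.975), MTCH2 and FZD10 most like WNT7B. TUBBP1 (0.987), MCM10 and CCNE2 came first for WNT8B, and TMEM59 (0.987), JAZF1 and CGN for WNT10B. For WNT7A these were SPAG4 (0.986), S100A6 and HLA-DRB1, for WNT3 POLR3E (0.995), CCDC43 and ZFAND3, for WNT5A HGSNAT (0.992), TCTN2 and RP11-689P11.2, and for WNT5B FAM229A (0.99), RP11-348P10.2 and ZNF155. The 8 points share dose, replicate series and library depth.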

How the data were processed

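The authors deposited raw read counts per gene for 14 libraries. Named in the submitters' processing notes are hg19, DESeq2 1.12.4, HTSeq 0.5.3, featureCounts 1.4.2 and STAR 2.4.2a, while library kit and strandedness were not given in the sources used here. Summary entries (37.41% to 44.33% of counts) were left out.

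The members and lists were chosen with earlier results of these data known. CPM used all gene counts of a library. Fits used edgeR 4.0.16 in R 4.3.3 (TMM, filterByExpr, robust quasi-likelihood, Benjamini-Hochberg, 0.05) on the 8 day 11 libraries or these with 2 hPSC libraries, each with no block and then blocked by replicate number. The day 11 fits were also run on simulated counts, in which the replicate effect was equal at every dose, as the block assumes. That run cannot show how the block does where the effect differs between doses. The labels state no design. Pairing was taken from same-numbered deviations in these same counts (r = 0.64 to 0.86) and from a code that day 11 descriptions share. Against hPSC r was -0.11 to -0.18. DESeq2 1.42.0, other scalings, no filter and leave-one-out were alternatives. Bounds take a floor of 3 counts, and no fold is given where 2 groups hold under 10 counts together. Intervals are 95% and exact (Clopper-Pearson on the share of counts), for counting error only. Each SE of an edgeR log2 fold change or slope is its absolute value over the square root of the quasi-likelihood F. These SEs are approximate, above all for genes with few counts.

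Named pathway genes are up to 4 per list, by size of the 7.5 against 0.7 µM fold change without the block, and the 3 genes most like each member (mean CPM at least 1). Opposite-strand pairs share at least 100 exonic bases (GENCODE 29, joined by gene identifier), with at least 100 CPM in one gene and a 10-fold difference in the 7.5 µM day 11 libraries. A comparison of day 30 with day 16 was planned and is not reported, since those counts do not follow the genes they are listed under.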

Additional observations from a re-analysis of the deposited data

How the results depend on the processing

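The replicate block moved most counts of calls at day 11. Genes called went from 0 to 1967 (7.5 against 0.7 µM), 0 to 211 (5 against 0.7), 0 to 4 (3 against 0.7), 0 to 1221 (7.5 against 5) and 25 to 222 (slope), and WNT genes from 0 to 5, 0 to 1, 0 to 0, 0 to 2 and 1 to 3. Against hPSC the block gave 5282 genes (0.7 µM; 2248 without) and 3987 (7.5 µM; 1978 without), a block within day 11 gave 11016 and 9188, with 7 WNT genes at 7.5 µM, and crossed numbers gave 6051 and 4412. DESeq2 called 657, 129, 17, 203 and 330 genes in the day 11 comparisons in the same order, with 4, 1, 0, 0 and 3 WNT genes, and 4400 and 3537 against hPSC. Without a filter 29 and 6 genes were called at 7.5 and 5 against 0.7 µM. With 1 library left out and no block, the slope called 0 to 30 genes and 0 WNT genes, and calls against hPSC ranged from 137 to 1609 genes with 0 to 4 WNT genes (0.7 µM) and from 261 to 413 with 0 to 2 (7.5 µM). With the block they ranged from 672 to 5602 (3 to 7 WNT genes; 7.5 against 0.7), 32 to 161 (0 to 1), 0 to 41, 4 to 5839 (0 to 4; 7.5 against 5) and 2 to 231 (0 to 3; slope). Where this leaves 1 library in a group, it is assumed to vary like the others. Signs turned only for changes that were not called. WNT5B at 7.5 against 0.7 µM was at 0.03, at -0.0053 with DESeq2 size factors and -0.0098 with DESeq2, and between -0.84 and 2.06 with 1 library left out (-0.23 to 1.05 with the block). WNT5A was between -0.32 and 0.67 (-0.41 to 0.77 with the block), and WNT4 at 7.5 against 5 µM between -0.23 and 1.17. The causes were not tested. Group means of CPM moved by more than 1 SD in 9 of 50 cases with DESeq2 size factors, 6 with TMM and 9 with a protein-coding denominator. Depth limits WNT1, WNT3A and WNT8B, at 0 to 13 counts in most libraries. The alternatives of day 30 against day 16 were not run.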
